A study of Mus musculus with 6 samples.

Results

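The regions described here are the distal Lsd1-bound regions that carried a ChIP-seq peak under every condition examined in differentiating C2C12 cells, a mouse myoblast line. The peaks of 3 Lsd1 ChIP libraries were pooled, peaks overlapping by at least 1 bp were merged, and merged regions were kept when they held a peak of each library and when their centre lay more than 2000 bp from every transcription start site (TSS) of curated RefSeq transcripts on mm10. This gave 6325 regions, which were 11.1% of all 56729 merged regions (95% Wilson interval 10.9 to 11.4%) and 14.6% of the 43365 distal ones. Of the 11664 merged regions with peaks of all 3 libraries, 54.2% were distal. The regions were chosen by the peak calls of these same libraries, so their presence in all 3 libraries is a description.

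Lsd1 occupancy was measured on day 1 of differentiation in 3 conditions, each with 1 ChIP library and 1 input library and no replicates. Wild-type cells were kept either in myogenic medium, which is DMEM with 2% horse serum, or in adipogenic medium, which is DMEM with 10% FCS supplemented with 850 nM insulin, 5 μM dexamethasone, 1 μM rosiglitazone, 0.5 mM isobutylmethylxanthine, 125 nM indomethacin and 1 nM T3. LSD1(OE) cells were kept in the same adipogenic medium and received doxycycline before and during differentiation. These cells are a stable lentiviral line, selected with G418, that expresses Flag-tagged LSD1 from a tetracycline-dependent promoter, so the level of LSD1, the line and doxycycline cannot be told apart, nor can the serum and the adipogenic agents. All cells were fixed for 6 min in 1% PFA, and precipitated with an antibody directed at the Lsd1 C-terminus, which does not tell the endogenous from the introduced protein. With 1 library per condition no difference between conditions could be tested, and the values below compare libraries.

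Lsd1 (Kdm1a) is a histone demethylase that removes methyl groups from lysines of histone H3 and acts mostly within the CoREST complex together with histone deacetylases. It has no known sequence preference of its own and is brought to chromatin by transcription factors such as Snail and Gfi1 proteins. Besides promoters it is found at enhancers, the distal elements at which cell-type factors bind, which in myoblasts include the E-box factor Myod1, AP-1 dimers of Fos and Jun proteins, and Tead and Runx factors.

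The sequences that recurred at the centres of the distal regions are shown first. The peak summit of the myogenic library is given with 100 bases on either side for the highest-ranking regions that hold one of 3 motifs, the E-box with a GC core (CAGCTG), the AP-1 element (TGACTCA, or TGAGTCA on the other strand) and the Sp/Klf GC box (GGGCGG, or CCGCCC on the other strand). Regions were ranked by the lowest of their score percentiles in the 3 libraries. Each sequence is the plus strand of mm10 (GRCm38), 5′ to 3′, is named after the gene with the nearest TSS, and has the motif matches in capitals. The centres of all 5 regions lie between curated RefSeq genes. From the centre, the nearest curated TSS was 8345 bp away for Cdc42ep1, 18314 bp for Mir6951 and 38009 bp for Snai1. For Ywhaz it was 81753 bp and for Cpn2 80417 bp away. The Mir6951 centre also lay within 2000 bp of a predicted RefSeq or GENCODE TSS.
Cdc42ep1 region, chr15:78832935-78833135: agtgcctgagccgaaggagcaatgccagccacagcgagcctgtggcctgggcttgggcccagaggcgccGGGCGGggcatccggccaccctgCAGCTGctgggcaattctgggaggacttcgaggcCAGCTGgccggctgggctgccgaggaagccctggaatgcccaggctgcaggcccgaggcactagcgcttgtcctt
Mir6951 region, chr15:38471024-38471224: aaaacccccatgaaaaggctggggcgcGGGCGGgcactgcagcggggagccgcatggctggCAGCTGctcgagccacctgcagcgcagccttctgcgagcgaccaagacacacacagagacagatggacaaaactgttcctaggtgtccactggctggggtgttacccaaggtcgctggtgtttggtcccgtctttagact
Snai1 region, chr2:167574738-167574938: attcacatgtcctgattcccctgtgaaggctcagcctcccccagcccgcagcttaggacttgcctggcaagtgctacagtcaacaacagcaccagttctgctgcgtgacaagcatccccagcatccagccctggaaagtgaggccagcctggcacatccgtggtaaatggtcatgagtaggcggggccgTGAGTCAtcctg
Ywhaz region, chr15:36884827-36885027: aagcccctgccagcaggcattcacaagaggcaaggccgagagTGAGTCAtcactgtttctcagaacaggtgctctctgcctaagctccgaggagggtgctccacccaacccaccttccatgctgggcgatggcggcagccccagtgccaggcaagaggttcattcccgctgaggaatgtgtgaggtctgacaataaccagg
Cpn2 region, chr16:30188125-30188325: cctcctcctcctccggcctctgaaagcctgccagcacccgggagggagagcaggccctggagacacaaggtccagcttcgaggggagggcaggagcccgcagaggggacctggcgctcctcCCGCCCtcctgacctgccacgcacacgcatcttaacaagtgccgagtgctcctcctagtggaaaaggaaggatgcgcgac
The Cdc42ep1 window held 2 E-boxes and 1 GC box and the Mir6951 window 1 of each. A single AP-1 element was found in the Snai1 and in the Ywhaz window, and a single GC box in the Cpn2 window.

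The highest-ranking distal region lay upstream of Cdc42ep1, whose product binds the small GTPase Cdc42 (chr15:78829940-78838664), with 943 ChIP tags in the myogenic, 958 in the adipogenic and 998 in the LSD1(OE) library. Tag density is used below as the measure of level, and is the number of tags in the peaks of a region per kb of peak and per 1000000 ChIP tags left after the duplicate filter. On that scale the Cdc42ep1 region had 2.70, 2.14 and 2.32 in the same order, highest in the myogenic library. The region near Scx, which encodes the tendon factor scleraxis (chr15:76454420-76465600, centre in an intron), held 1324, 1356 and 1230 tags at densities of 2.82, 2.05 and 2.30. Near Pmepa1, a target and inhibitor of TGF-beta signalling (chr2:173259592-173268071, intron), the counts were 622, 793 and 935 tags at densities of 1.95, 1.99 and 2.29. Here the LSD1(OE) library was the highest. The region near Cldn9, a claudin gene (chr17:23697676-23700857, intergenic), was the densest of the 10 highest-ranking ones, with 408, 477 and 448 tags at densities of 2.97, 3.03 and 3.68. Of these 10, the densities were lower in the adipogenic than in the myogenic library at 8, all but Cldn9 and Pmepa1. The remaining 6 lay nearest to H2bc6, Cpn2, Mir6951, Cirbp, E2f2 and Sh3bp2. The regions near Scx, H2bc6, Cirbp and E2f2 were long enough to cover a TSS although their centres lay beyond 2000 bp.

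**Figure D1:**
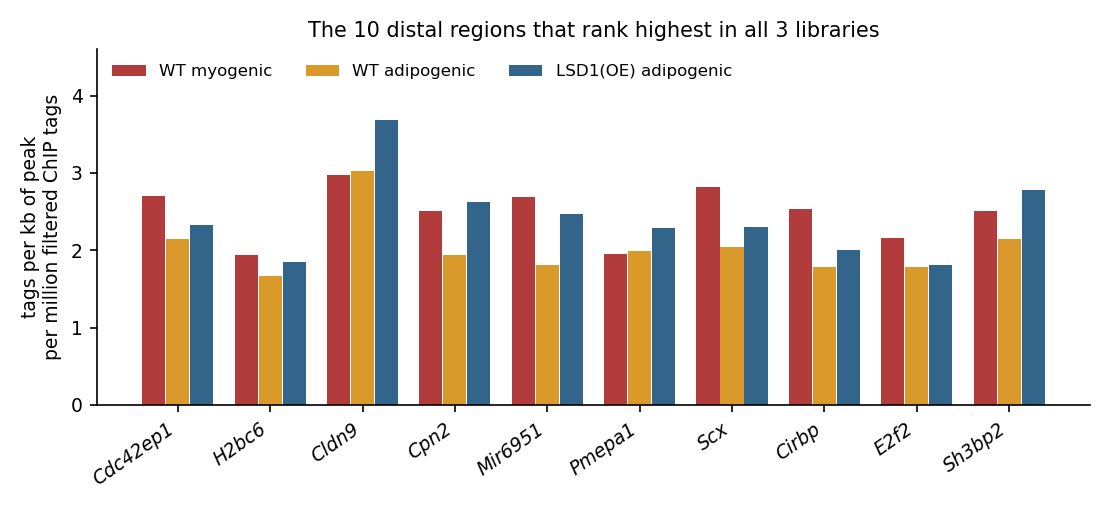
Lsd1 tag density (tags per kb of peak per 1000000 filtered ChIP tags, y axis) in each library at the 10 distal regions that rank highest in all 3 libraries, named by the nearest TSS. Each bar is 1 library, without replicates. The myogenic bar is above the adipogenic bar at 8 of the 10 regions.

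The distal regions held 7416 of the 43426 myogenic, 7042 of the 18893 adipogenic and 7237 of the 33533 LSD1(OE) peaks. They made up 21.4% of the distal regions with a myogenic peak, 55.8% of those with an adipogenic peak and 27.9% of those with an LSD1(OE) peak. Filtered ChIP tags numbered 46155625, 63915769 and 55193310 in that order, of which 1.79, 1.39 and 1.69% fell in the distal regions, and the weakest peak of each library had 27, 35 and 30 tags. A base was covered by peaks of all 3 libraries in 97.4% of the regions, and the remainder were chained by overlaps of pairs of libraries. Merged regions had a median length of 1953 bp (802 to 34566 bp), of which a median of 961 bp was covered in all 3 libraries. The summits of the myogenic and the adipogenic peak were 159 bp apart in the median, and 56.5% of regions had them within 200 bp. For LSD1(OE) the median distance was 155 bp from the adipogenic and 172 bp from the myogenic summit. In the median region the summits of any pair of libraries thus lay within the fragment length of 200 bp that MACS assumed.

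Nearest TSSs were a median of 23472 bp away (quartiles 9736 and 51211 bp), and 48.7% of the regions lay 10 to 50 kb from one. Regions beyond 100 kb were 9.55% of the set (8.85 to 10.3%), against 14.1% (13.6 to 14.7%) of the 16972 distal regions bound only in the myogenic library. Centres fell between genes in 49.6%, in introns in 47.5% (46.3 to 48.8%), in exons in 1.91% and in 3′ UTRs in 0.949% of regions. The intron share differed from that of the myogenic-only distal regions by -0.59 points (95% Newcombe interval -2.03 to 0.85), an interval that includes 0. Because the rule used the centre, 330 of the regions (5.22%) had an edge within 2000 bp of a TSS and 50 of these (0.791% of all) covered one. Of the distal regions, 656 lay within 2000 bp of a TSS that RefSeq only predicts, and 1244 (19.7%) within that distance of a predicted RefSeq or GENCODE TSS. The regions at the limit were those near Abcc4 at 2003 bp (56, 76 and 51 tags) and N4bp1 at 2005 bp (284, 135 and 67 tags) just beyond it, and those near Zfp316 at 1998 bp (31, 59 and 77 tags) and Galnt9 at 1994 bp (30, 75 and 82 tags) just within it.

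At the distal regions tag density was highest in the myogenic library and lowest in the adipogenic one. Tags per region had medians of 99 (myogenic), 106 (adipogenic) and 108 (LSD1(OE)), and the density medians were 1.44 (quartiles 1.26 and 1.66), 1.21 (1.09 and 1.35) and 1.32 (1.15 and 1.51). The interquartile ranges of all 3 libraries overlapped. The lowest densities at these regions were 0.956, 0.863 and 0.896, so this floor had the same order as the medians. How far the floor enters the differences between libraries was not tested. The deposited fold enrichment, a ratio to the local background of each library that is not comparable between libraries, had another order, with medians of 2.88, 3.44 and 2.78 and the highest value in the adipogenic library. Density was lower in the adipogenic than in the myogenic library at 82.7% of the regions, with a median log2 ratio of -0.24 (quartiles -0.41 and -0.06). LSD1(OE) over adipogenic had a median log2 ratio of 0.12 (-0.04 and 0.28), with 30.4% of regions lower, and LSD1(OE) over myogenic one of -0.12 (-0.33 and 0.08), with 66.1% lower. The LSD1(OE) library thus lay between the other two. The 5339 promoter regions with peaks of all 3 libraries had density medians of 1.69, 1.22 and 1.36, and a median log2 ratio of adipogenic over myogenic of -0.45. Distal and promoter regions were close to each other in both adipogenic libraries, and further apart in the myogenic library.

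**Figure D2:**
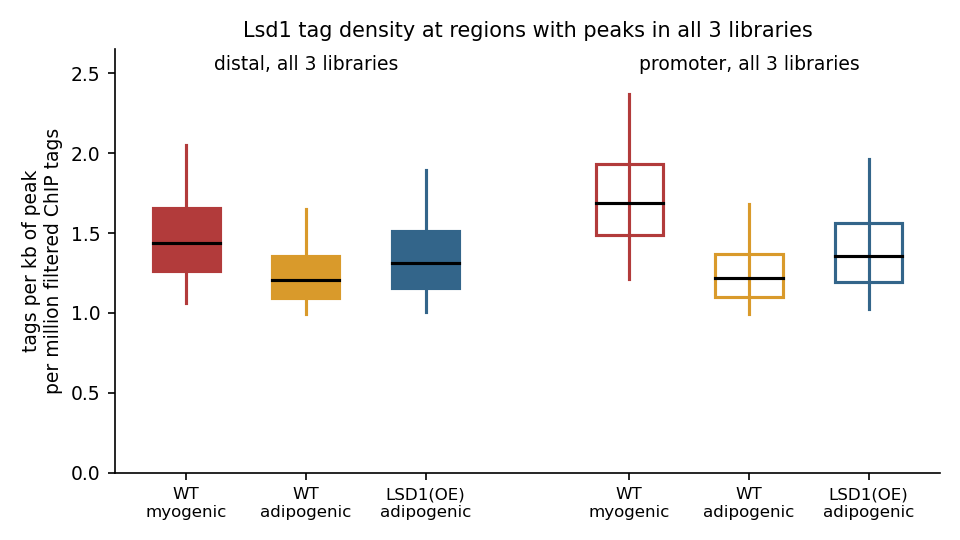
Lsd1 tag density (tags per kb of peak per 1000000 filtered ChIP tags, y axis) in each library at the 6325 distal and the 5339 promoter regions with peaks in all 3 libraries. Boxes span the quartiles, the black line is the median and whiskers run from the 5th to the 95th percentile over regions, so they show the spread between regions and not between replicates. The distal medians are 1.44, 1.21 and 1.32.

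Differences of 1.5-fold or more were few. The adipogenic density was lower by that much at 588 distal regions (9.30%) and higher at 7, while over all 14149 regions with peaks in both libraries 16.9% were lower and 0.0495% higher. LSD1(OE) over adipogenic was higher at 158 distal regions (2.50%) and lower at 6, against 2.8% higher and 0.0843% lower over all 13053 regions with peaks in both. LSD1(OE) over myogenic was lower at 406 (6.42%) and higher at 69 (1.09%), against 8.79% and 0.517% of 18581 regions. These backgrounds include the distal regions themselves, and because a region needs a peak in both libraries the ratios are bounded by the weakest tag density that was still called. When the regions were ranked by score in the library that did not enter a ratio and divided into 4 groups of equal size, the median log2 ratio ran from -0.25 to -0.23 for adipogenic over myogenic, from 0.10 to 0.13 for LSD1(OE) over adipogenic and from -0.15 to -0.10 for LSD1(OE) over myogenic. Ranked by the myogenic score, which shares its tags with the ratio, the regions had a median log2 ratio of adipogenic over myogenic from -0.03 in the lowest group (57.7% lower) to -0.40 in the highest (95.8% lower). Across the 6325 regions, which share their libraries and the peak threshold, Spearman's rho between densities was 0.473 for adipogenic and myogenic, 0.528 for LSD1(OE) and adipogenic and 0.389 for LSD1(OE) and myogenic.

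**Figure D3:**
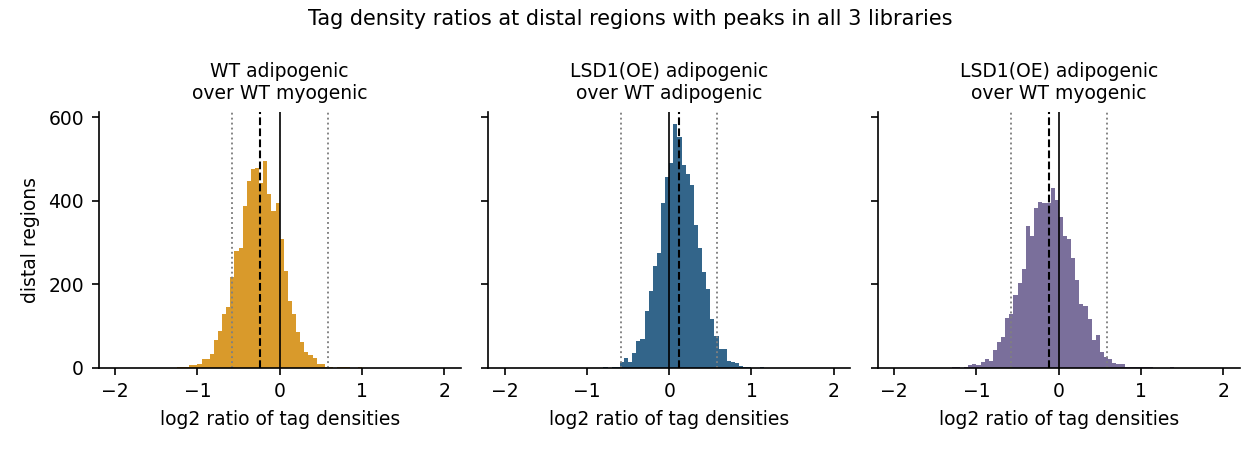
Number of distal regions (y axis) by log2 ratio of tag densities (x axis) for each pair of libraries. The solid line marks equal density, the dashed line the median (-0.24, 0.12 and -0.12) and the dotted lines a 1.5-fold difference in either direction. Most regions lie between the dotted lines in each pair.

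Among the 2385 regions with at least 100 tags in both wild-type libraries, the lowest ratio of adipogenic over myogenic was found near Slc38a2, an amino acid transporter gene, with 282 myogenic and 154 adipogenic tags and a log2 ratio of -1.18. The next lowest lay near Rnu5g (-1.14) and near Gli2, a factor of Hedgehog signalling (-1.11). The highest ratios lay near Scamp1 with 143 and 220 tags and near Lpgat1 with 151 and 330 tags (0.54 each), followed by Xrcc5, which encodes the DNA repair protein Ku80 (0.47). For LSD1(OE) over adipogenic the highest ratios were those near Gm30662 (0.97), Zfp420 (0.87) and Lhfpl2 (0.84), the last with 150 adipogenic and 288 LSD1(OE) tags. The lowest were near Pakap (-0.65), AW046200 (-0.62) and Tns3 (-0.58). For LSD1(OE) over myogenic the extremes were Eapp (-1.12), 2900026A02Rik and Rdm1 (-1.09 each) at the low end and F630040K05Rik (0.74), Zfp568 (0.73) and again Xrcc5 (0.67) at the high end. These regions were selected for their ratios, which stand here as a description.

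The GC-core E-box, the element bound by Myod1 and other myogenic bHLH factors, was the most frequent of 21 motifs searched. Among these motifs, which differ in length, it also had the largest difference in points from the flanks. Within 100 bases of the myogenic summit, searched on both strands, it was present in 28.5% of the distal regions (27.4 to 29.7%, 1805 regions), against 11.3% of windows of the same length 1000 bp to either side, a difference of 17.3 points (16.05 to 18.5). Promoter regions with peaks in all 3 libraries had it in 14.2%, distal regions bound only in the myogenic library in 18.5%, and the 4411 distal regions bound in the myogenic and LSD1(OE) libraries in 20.9%. The distal regions of all 3 libraries exceeded these sets by 14.3 points (12.8 to 15.8), 10.0 points (8.77 to 11.3) and 7.66 points (6.01 to 9.28). The intervals cover counting error over regions only. Median GC content was 52.7% in the summit windows, 47.3% in the flanks and 48.8% in the myogenic-only regions. Base composition was not matched in the comparisons with flanks or with other distal regions, for this or any other motif. The difference from promoters was 7.15 points (4.61 to 9.57) in windows with a CpG ratio under 0.6, and that from myogenic-only regions was 4.85 points (2.42 to 7.24) among regions whose myogenic score lay between the quartiles of the distal set.

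AP-1 elements, bound by dimers of Fos and Jun proteins, were found in 18.4% of the distal regions (17.5 to 19.4%, 1163 regions) and in 4.14% of the flanks, a difference of 14.2 points (13.2 to 15.3). At promoter regions the share was 3.58%, at myogenic-only distal regions 11.4% and at regions of the myogenic and LSD1(OE) libraries 16.1%. The differences were 14.8 points (13.7 to 15.9), 6.96 points (5.90 to 8.04) and 2.34 points (0.88 to 3.77), and none of the intervals includes 0. The difference from myogenic-only regions was smaller among regions in that score range, at 3.58 points (1.49 to 5.63), and with peaks of an FDR of at most 0.1%, at 2.52 points (0.95 to 4.14). Regions of the myogenic and LSD1(OE) libraries had a median myogenic score of 120, against 290 in the distal set. No difference from them was computed in that score range, for AP-1 or for the E-box. E-boxes were held by 28.03% of regions with an AP-1 element and by 28.7% of those without, a difference of -0.62 points (-3.42 to 2.30). Both elements were held by 326 regions (5.15%), and at least one by 2642 (41.8%).

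**Figure D4:**
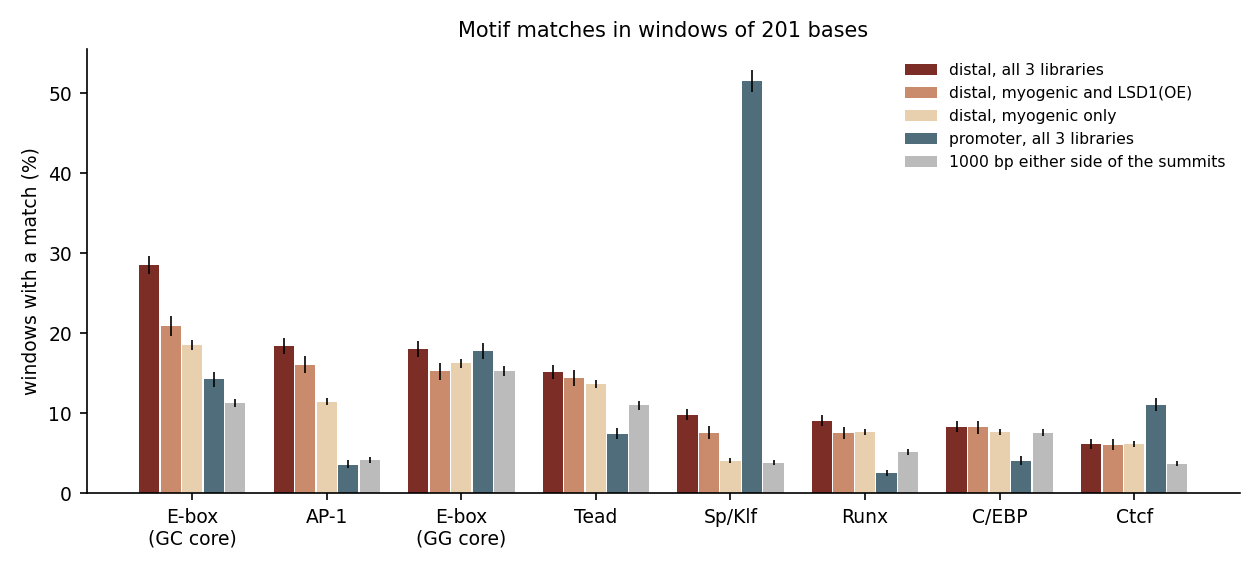
Share of windows of 100 bases either side of the summit with a motif match (%, y axis) for 8 motifs in the distal regions of all 3 libraries, in 3 sets of other regions and in windows 1000 bp either side of the summits. Bars are shares and error bars 95% Wilson intervals, counting error only. The distal regions have 28.5% for the GC-core E-box and 18.4% for AP-1, above every other set shown, while the Sp/Klf share is highest at promoters (51.5%).

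Matches were concentrated at the summit. E-boxes occurred 93.4 times per 1000 distal regions and 50 bp within 50 bp of the summit and 32.4 times beyond 500 bp, a 2.88-fold ratio. The corresponding values for AP-1 were 54.0 and 11.9, a 4.52-fold ratio, and for the GC box 32.9 and 13.1, a 2.52-fold ratio. AP-1 was thus the most sharply centred of these motifs in the distal regions. At promoter regions AP-1 had a ratio of 1.15, and at myogenic-only distal regions one of 3.09.

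**Figure D5:**
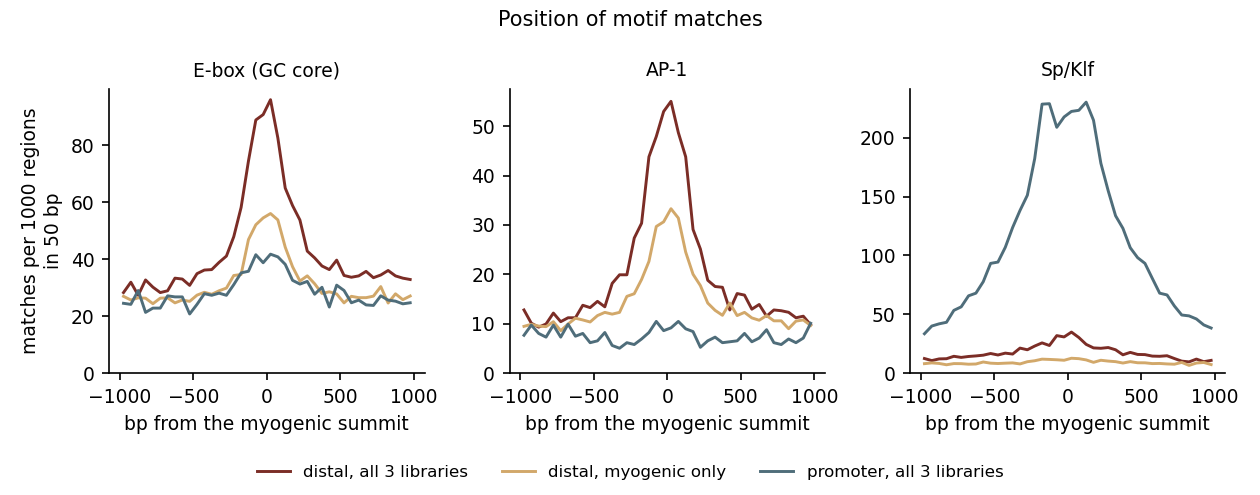
Motif matches per 1000 regions in bins of 50 bp (y axis, a separate scale in each panel) against the distance from the myogenic summit (bp, x axis) for the distal regions of all 3 libraries, the myogenic-only distal regions and the promoter regions of all 3 libraries. In the distal regions of all 3 libraries E-box and AP-1 matches peak at the summit, and the Sp/Klf panel is dominated by promoters.

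Of the other 19 motifs, the Sp/Klf box was held by 9.80% of the distal summits and 3.81% of flanks (5.99 points, 5.20 to 6.81); at promoters its share was 51.5%. The Tead element GGAATG was held by 15.2% against 10.96% of flanks (4.21 points, 3.19 to 5.26), and the Runx element TGTGGTT by 9.08% against 5.17% (3.91 points, 3.11 to 4.73). Tead and Runx proteins bind enhancers in many mesenchymal cells. Both shares were also above those of myogenic-only regions, by 1.502 points (0.49 to 2.54) and 1.44 points (0.64 to 2.27). The myogenic-only regions had weaker peaks, with a median myogenic score of 69.1 against 290. Unlike those of the E-box and AP-1, the differences of these other motifs were not recomputed in a common score range. For Tead the difference from the regions of the myogenic and LSD1(OE) libraries was 0.80 points (-0.57 to 2.16) and included 0. The Ctcf element, that of the insulator protein, was present in 6.13% of the distal regions and 3.65% of flanks (2.48 points, 1.82 to 3.18), and the share differed from that of myogenic-only regions by -0.03 points (-0.71 to 0.68). The Mef2 motif, that of a myogenic MADS-box family, was rarer at the summits (1.502%) than in the flanks (2.43%), a difference of -0.92 points (-1.32 to -0.51). Rest elements (TTCAGCACC), whose factor recruits CoREST, were held by 0.632% of the distal regions and 0.182% of flanks. The glucocorticoid receptor element was held by 0.601% and 0.427%. The E-box CAGGTG, listed for Snail and Zeb repressors and also for E proteins, was held by 1139 distal regions, 2.77 points (1.65 to 3.92) above flanks. Against promoter regions its difference was 0.233 points (-1.17 to 1.63), and against myogenic-only regions 1.79 points (0.702 to 2.897). The Gfi1 element was held by 0.664% of distal regions and 0.466% of flanks. That difference was 0.198 points (-0.021 to 0.452), and the intervals against the other region sets also included 0. A match is a run of letters and was not tested for binding.

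Windows rich in CpG dinucleotides, with a GC content of at least 50% and a CpG ratio of at least 0.6, made up 5.93% of the distal summits and 73.3% of the promoter ones. This was 4.56 points (3.98 to 5.19) more than among myogenic-only distal regions and 1.94 points (1.11 to 2.75) more than among those of the myogenic and LSD1(OE) libraries. Of the 375 CpG-rich distal regions, 49.9% lay within 2000 bp of a predicted RefSeq or GENCODE TSS, against 17.8% of the others, a difference of 32.1 points (27.0 to 37.2). Their median log2 ratio of adipogenic over myogenic density was -0.36, against -0.23 in the other 5950. Regions with and without an E-box had -0.23 and -0.25, and those with and without AP-1 -0.23 and -0.24. Summit windows with more than 50% of bases in annotated repeats were 4.96% of the distal regions, a difference of -6.44 points (-7.15 to -5.71) from the myogenic-only regions.

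Distal regions frequently had another one nearby. In 44.9% of them (43.7 to 46.2%) the next distal region of the set lay within 12500 bp, against 25.5% among the 4411 regions of the myogenic and LSD1(OE) libraries and 47.5% among the 16972 myogenic-only regions, sets whose sizes differ and enter such shares. Chains linked at that distance with at least 3 regions held 1490 of the regions (23.6%). The longest chain had 13 regions over 120.7 kb near Myh9, which encodes the nonmuscle myosin heavy chain IIA (chr15:77797285-77917964), with 86 to 853 tags per region in the myogenic, 59 to 940 in the adipogenic and 70 to 957 in the LSD1(OE) library. Density was lower in the adipogenic than in the myogenic library at 12 of these 13, and 6 summits held an E-box and 2 an AP-1 element. A chain of 11 regions over 68.8 kb lay near Snai1 (chr2:167537080-167605831), the gene of the Snail repressor that recruits Lsd1, with 28 to 843, 54 to 855 and 34 to 1324 tags and lower adipogenic density at 9 of 11. Over all 6325 regions the adipogenic density was lower at 82.7%. Chains of the same number lay near A330074K22Rik on chromosome 8 over 73.5 kb and near Socs3, a cytokine signalling inhibitor, over 78.5 kb.

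The distal regions were nearest to the TSS of 3462 of 26180 genes (13.2%), and 2120 of these genes had a single region. Tns3, which encodes the focal adhesion protein tensin 3, had the most, 19, of which 11 lay in introns, at 10792 to 298881 bp from a TSS and with 54 to 276, 48 to 309 and 54 to 260 tags. It was followed by 4921525O09Rik and A330074K22Rik with 14 each, and by Septin9, a cytoskeletal gene, with 13. All 13 Septin9 regions were intronic, with up to 1119, 1171 and 1688 tags. The gene nearest to a distal region also had a promoter region with peaks of all 3 libraries in 46.2% of cases (45.0 to 47.4%), which was 7.61 points (6.18 to 9.04) above the myogenic-only distal regions and 4.46 points (2.55 to 6.36) above those of the myogenic and LSD1(OE) libraries. Of the 5147 genes with such a promoter region, 27.3% had a distal region (26.1 to 28.5%), against 9.78% (9.39 to 10.2%) of the other 21033.

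Among muscle genes, 5 of 15 myogenic regulators were nearest to a distal region, against 13.2% of all genes. Of genes with a promoter region in all 3 libraries the share was 27.3%, as given above. The regulators were Mef2a, Myf6, Six4, Mef2d and Pax3. Mef2a, a MADS-box factor, had 4 regions, the highest-ranking with 78 myogenic, 170 adipogenic and 187 LSD1(OE) tags. The region 4861 bp from Myf6, a muscle regulatory factor gene, held 118, 88 and 109 tags at densities of 1.59, 1.20 and 1.59. These 2 regions went in opposite directions, Mef2a being denser in the adipogenic library (1.61 and 1.70) and Myf6 less dense. Of 29 sarcomere and muscle structure genes, 10 had a region. The one near Des, the muscle intermediate filament gene, held 186, 111 and 176 tags, the highest-ranking one of Tnnt2, a troponin gene, 262, 184 and 233, and that near the skeletal actin gene Acta1 83, 93 and 131. Density at the Tnnt2 and Acta1 regions was lowest in the adipogenic library, and at the Des region both adipogenic libraries (1.36 and 1.35) were below the myogenic one (1.81).

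Distal regions were also found near adipogenic genes, 5 of 17 regulators (29.4%) and 2 of 14 genes of mature adipocytes (14.3%), the latter close to the 13.2% of all genes. For Klf4, a Krüppel-like factor gene with 6 regions, the highest-ranking lay 200247 bp from the TSS and held 289, 320 and 380 tags at densities of 1.59, 1.22 and 1.44. The region near Zfp423, a preadipocyte determination factor, held 159, 202 and 153 tags. Pparg, the master regulator of adipogenesis, had 1 region 45080 bp away with 64, 66 and 40 tags, and Cebpa, its partner, had 1 with 58, 90 and 114. They ranked 5230 and 3610 among the 6325 regions. Of the adipocyte genes, Scd1, a fatty acid desaturase, had 1 region with 255, 296 and 330 tags and Plin2, a lipid droplet coat gene, had 2.

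Of 21 genes for subunits and recruiters of Lsd1 complexes, 7 (33.3%) had 26 regions between them, against 13.2% of all genes with a region. Among genes with a promoter region in all 3 libraries that share was 27.3%, and 11 of the 21 had such a promoter region. Snai1 had 7, the highest-ranking with 843, 834 and 1324 tags at densities of 2.03, 1.67 and 2.30. That region is 10424 bp long, has its centre 4096 bp from the Snai1 TSS in a 3′ UTR, and covers a TSS. Gse1, a gene for a component of the CoREST complex, had 9, the highest-ranking with 251, 347 and 399 tags, and Zeb1, an E-box repressor gene, had 4. AP-1 factor genes had a region in 4 of 12 cases (33.3%), and 10 of the 12 had a promoter region in all 3 libraries. The highest-ranking region of Fos held 99, 134 and 176 tags and that of Jun 163, 145 and 168. Of 15 Tead, Yap and Hippo pathway genes 6 (40%) had 22 regions, 8 of them at Vgll4, a Tead cofactor gene. A promoter region in all 3 libraries was present at 9 of these 15 genes. The highest-ranking Vgll4 region had 167, 160 and 205 tags at densities of 1.79, 1.86 and 2.41.

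Lists of glucocorticoid-induced, of extracellular matrix and of Runx, Nfi and TGF-beta genes had regions at most of their genes. Of 14 genes known to be induced by glucocorticoids, 10 had a region, against 13.2% of all genes and 27.3% of genes with a promoter region in all 3 libraries. Such a promoter region was present at 12 of the 14, at 14 of the 21 extracellular matrix genes and at 10 of the 18 Runx, Nfi and TGF-beta genes. The highest-ranking was near Dusp1, a MAP kinase phosphatase gene, with 435 myogenic, 559 adipogenic and 582 LSD1(OE) tags at densities of 1.91, 1.41 and 1.78. It was followed by Nfkbia, the inhibitor of NF-kappaB, with 281, 346 and 476 tags at 1.76, 1.43 and 1.79. Both regions were less dense in the wild-type adipogenic than in the myogenic library, as were 82.7% of all the distal regions. Extracellular matrix and adhesion genes had a region in 16 of 21 cases and 52 regions in all, including 10 at Col5a1 and 7 at Col4a1, both collagen genes. The region near Timp3, a metalloproteinase inhibitor gene, held 279, 309 and 230 tags, and the highest-ranking one of Col4a1 421, 342 and 637. Of 18 Runx, Nfi and TGF-beta genes 10 had 39 regions, of which 9 were at Runx1, 7 at Runx2 and 7 at Smad3. The highest-ranking one of Runx3 held 268, 351 and 343 tags. These counts were not tested.

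The study lists 349 genes whose RNA changed in opposite directions on overexpression and knockdown of Lsd1 in adipogenic medium. They were drawn from genes that also differed between myogenic and adipogenic medium in wild-type cells. Of the 349 names, 341 were matched here, to 340 genes. Of these, 120 (35.3%) had a distal region, against 13.2% of all genes. The share was 37.3% (31.7 to 43.2%) of the 271 genes listed as higher in LSD1(OE) cells and 27.5% (18.4 to 39.0%) of the 69 listed as lower, intervals that overlap. Among the genes higher in LSD1(OE), 56 of 119 with a promoter region in all 3 libraries had a distal region (47.1%) and 45 of 152 without one did (29.6%). For the genes lower in LSD1(OE) these were 11 of 38 (28.9%) and 8 of 31 (25.8%), and over all genes 27.3% and 9.78%. The listed genes had to reach a minimum read count in the study, while the shares over all genes were not limited to expressed ones. The compared sets of genes are thus unlike, with or without a promoter region.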

How the data were processed

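The authors sequenced 50 bp single reads and, per the labels, mapped them to mm10 with Bowtie2. Peaks were called with MACS, given as 1.4.2 in the file headers and as 1.41 in the submitters' notes, separately per ChIP library, with the matching input as control and a p-value limit of 1e-05, after at most 2 ChIP and 3 input duplicates per position were kept. The deposited tag count of a peak is a raw count without normalization. The deposited score is 10 times the negative log10 of the MACS p-value, computed after MACS had multiplied the tags of the smaller library to match the larger, and was not recomputed. The deposited fold enrichment is a ratio to the local background of each library. Its medians per library are given above, but it entered no ratio between libraries. The deposited FDR is in percent and was at most 0.37, 0.73 and 0.44% in the myogenic, adipogenic and LSD1(OE) libraries. The input libraries enter only through the peak calls, and reads and expression were not analysed here.

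Peaks were merged, classed against 31647 curated RefSeq TSSs of 26180 genes and assigned to the gene of the nearest TSS. No peak lay beyond a chromosome end of the reference. Summits were those of the peak with the highest score. Tag counts of the peaks of a region were summed per library and divided by the length called and by filtered ChIP tags in units of 1000000. Motifs were searched as exact letters on both strands, those of Mef2 and serum response factor as their usual consensus. Shares have 95% Wilson intervals and differences 95% Newcombe intervals. These treat regions as independent and cover counting error only. No test was made between conditions, which had 1 library each.

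The distal regions and all gene and motif lists were chosen with earlier results of these data known. Genes were named by rule: the 10 regions with the highest lowest-of-3 score percentile, the 5 genes with most regions, the 3 chains with most regions, list genes with a region by rank, the regions at the distance limit, and the 3 highest and 3 lowest density ratios of each pair. One gene that the rule names is not reported here. The Socs3 chain is named because it tied, and Col5a1, Runx1, Pparg, Cebpa and others were named for their number of regions or their role after values were seen. Printed sequences were the 2 highest-ranking windows for each of the 3 motifs that differed most from the flanks, and were read from GRCm38. Alternatives changed the peak limits, a score filter for the scaling among them, the overlap, the distance limit, the annotation, the window and the linking distance. Merging, distal calls, the bases covered in all 3 libraries, motif matching, the Newcombe intervals and linking were tested on simulated data. The other steps were not tested in that way. Python 3.11.15, NumPy 2.4.6, SciPy 1.17.1, pandas 2.3.3, pysam 0.24.0 and matplotlib 3.10.9 were used.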

Additional observations from a re-analysis of the deposited data

How the results depend on the processing

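Of 183 recomputed values, 41 moved by more than the counting interval or the spread or, for counts, by over 1.5 times, and none changed direction. The differences in motif share were judged only by whether their interval kept to the same side of 0, which all did, while several moved by over 1.5 times. AP-1 minus myogenic-only regions ran from 2.52 to 11.2 points, AP-1 minus promoters from 8.27 to 23.6, E-box minus myogenic-only regions from 4.85 to 14.1 and E-box minus promoters from 7.15 to 19.1. The number of distal regions was 3161 with peaks of an FDR of at most 0.1% and 3690 with a score of at least 100 in every library. Under the same limits, in the same order, genes with a region numbered 2032 and 2305, regions with another within 12500 bp 37.5 and 38.6%, nearest genes with a promoter region 35.4 and 38.0%, median distance between myogenic and adipogenic summits 150 bp in both, median log2 ratio of LSD1(OE) over adipogenic 0.13 and 0.12, E-box share 31.5 and 30.5%, and the LSD1(OE) over myogenic ratio was -0.10 with the first. Without the scaling of ChIP tags by MACS, the adipogenic over myogenic ratio was -0.28, LSD1(OE) over adipogenic 0.15, regions with another nearby 41.1%, nearest genes with a promoter region 42.4% and the summit distance 153 bp. With equal peak numbers the 3 ratios were -0.32, 0.16 and -0.16, and the 2 shares 39.7 and 42.6%. Dividing by merged length gave -0.33 and 0.22 for the first 2 ratios, and the strongest peak alone gave -0.25 for the first. With a distance limit of 5 kb the shares with another nearby and with a promoter region were 43.2 and 51.2%, and with all RefSeq TSSs 42.2 and 39.2%. By the nearest edge the promoter share was 49.6%, and within 100 kb 68.6%. Linking at 5 and 25 kb gave 31.1 and 58.5%. Windows of 50 and 200 bases either side of the summit held AP-1 in 9.87 and 30.1% and an E-box in 16.2 and 44.0%. GENCODE TSSs gave an intron share of 46.2%. The GENCODE TSSs, the alternatives for the E-box and the set without repeat-rich or weakly enriched regions were chosen after seeing the data. No paired analysis was possible because each condition had 1 library. Without replicates the spread between cultures is unknown, a region below the weakest called tag count is not detectable as shared, and the density ratios depend on the length called.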

Other observations

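Distal regions bound in all 3 libraries were unevenly spread over the chromosomes. Chromosome 15 held 697 of them (11.02%), or 6.70 per Mb, followed by chromosome 11 with 589, or 4.82 per Mb. Chromosome X held 21, or 0.123 per Mb, and Y none. Chromosome 15 also held 9.61% and X 0.791% of the distal regions of any library. Of the distal regions with a myogenic peak, 25.3% on chromosome 11, 24.9% on 12, 24.8% on 17, 24.3% on 15 and 9.13% on X were bound in all 3 libraries.

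Some of the distal regions fell in enhancers that RefSeq annotates, mostly from transgenic mouse embryos of the VISTA collection. Summits lay inside such an enhancer in 61 regions (0.964%), 0.69 points (0.46 to 0.97) more than in myogenic-only distal regions and 0.40 points (0.05 to 0.73) more than in those of the myogenic and LSD1(OE) libraries. Of VISTA enhancers with a listed activity, 66 of 620 overlapped a region (10.6%, 8.46 to 13.3%). The share was 8 of 32 for enhancers active in somites (25%, 13.3 to 42.1%), 26 of 174 for limb (14.9%, 10.4 to 21.0%) and 15 of 167 for forebrain (8.98%, 5.52 to 14.3%), and these intervals overlap. For the other tissues counted the share was 18.75% in blood vessels (3 of 16), 12.2% in branchial arch, 11.9% in heart and 11.4% in facial mesenchyme. In hindbrain, midbrain and neural tube it was 10, 9.43 and 8.16%. A region near Ralgds in a somite enhancer held 379 myogenic, 419 adipogenic and 466 LSD1(OE) tags. It was chosen after its values were seen.

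The densest distal region lay at chr17:39842827-39849366, with its centre 104424 bp from the nearest curated RefSeq TSS. A predicted RefSeq or GENCODE TSS lay within 2000 bp of that centre. The region held 12379, 10767 and 14022 tags but had a fold enrichment over the local background of 1.02, 1.28 and 1.13. In all, 13 regions (0.206%) had a fold enrichment under 1.5 in at least one library.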
